A study of Rattus norvegicus with 12 samples.

Results

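Lung transcriptomes of MCT rats infused with AngII, which activates the angiotensin II type 1 receptor (AT1R), were set against those of MCT rats given losartan, which blocks it. The comparison joined the table of AngII against vehicle with the table of losartan against vehicle by gene identifier, and every gene listed in both was kept: 17197 genes of 19006 listed in either table, in 6 libraries (3 AngII, 3 losartan) of the 12 in the study. Of these genes, 15432 had enough reads to be tested, 639 further genes were listed for AngII alone and 1170 for losartan alone. The 3 vehicle libraries, which both tables hold, entered the fit as the level from which each drug group was read. They also entered the estimate of the spread between rats.

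All rats were 9 weeks old by the labels and had received monocrotaline (MCT) at 60 mg/kg, a plant alkaloid that injures the pulmonary endothelium and leads to pulmonary hypertension. The study used male Sprague-Dawley rats. Per the study's methods for the matching infusion protocol, a subcutaneous minipump was placed 1 week after MCT and ran for 2 weeks with PBS (vehicle), AngII at 1 mg/kg/day, losartan at 10 mg/kg/day or the biased agonist TRV023. The doses of AngII and losartan differed, so the comparison is between these regimens and not between matched doses. No group without MCT was analysed here, and whole lung tissue was sequenced, so in these bulk samples fewer cells of a type and less RNA per cell cannot be told apart. Libraries are named by group and animal number (Ang2_922, Ang2_931, Ang2_933; Los_925, Los_964, Los_965), and each is 1 rat, n = 3 rats per group.

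AT1R is a G protein–coupled receptor on vascular smooth muscle and other cells. AngII binding activates Gq signaling, calcium release and contraction, recruits β-arrestins, and feeds into ERK kinases and their transcription factors such as AP-1. Losartan occupies the same receptor without activating it, and blockade commonly lowers vascular resistance. In the lung, the receptor's effects meet those of the endothelin, nitric oxide and bone morphogenetic protein (BMP) pathways on the vessel wall.

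Between 17190786 and 20080071 reads were counted per library over the joined genes in the 9 libraries. The lung markers Scgb1a1, the secretoglobin of club cells, and Ager, a receptor of alveolar type 1 cells, were present in every library, with Scgb1a1 between 6588 and 29879 FPKM (fragments per kilobase of gene, scaled by the reads of the library) and Ager between 960 and 1716 FPKM. The root mean square distance between libraries in log2 CPM (counts scaled by the reads of each library) averaged 0.862 for AngII against losartan pairs, 0.845 within AngII and 0.836 within losartan. Within vehicle the average was lower, at 0.689. The 2 losartan rats Los_964 and Los_965 and the vehicle rat Veh_963 carry animal numbers in the 960s, and the numbers of all AngII rats lie below those. The labels do not say what the numbers mark, and treatment and number series cannot be fully told apart. For many gene lists the value without those 3 animals is given beside the result. In that setting Los_925 is the only losartan rat, so the value cannot separate the number series from that rat.

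The first question was how many genes separated the agonist from the blocker. No gene passed an adjusted p of 0.05 in edgeR's quasi-likelihood test (0 of 15432, 0%), where the smallest Benjamini-Hochberg adjusted p was 0.306. At an unadjusted p under 0.05, edgeR counted 1261 genes (8.17%), of which 680 were higher in AngII (4.41%) and 581 lower (3.76%). With library totals in place of TMM factors the median of all genes moved from −0.0156 to −0.112 and the split was 339 higher and 1015 lower, so directions below are relative to the TMM scale. DESeq2 on the same 9 libraries called 86 of 15472 genes (0.556%), with 55 higher in AngII (0.355%) and 31 lower (0.2%), and limma-voom called 0 with 1291 at an unadjusted p under 0.05. All 86 DESeq2 calls had an edgeR p under 0.05. In 85 of them the AngII and losartan libraries did not overlap, against 12.2% of all tested genes (6.44% with AngII higher and 5.81% with AngII lower). The calls were chosen on these same libraries, so neither property is separate support for them. The count rested on single animals: DESeq2 called 13 genes without Ang2_931, 430 without Ang2_922, 56 without Ang2_933, 209 without Los_925, 146 without Los_964 and 52 without Los_965, and the edgeR count at p under 0.05 was 736 without Ang2_931 and 2221 without Ang2_922. The direction of most calls also turned without Ang2_922, to 123 higher and 307 lower in DESeq2 and to 899 higher and 1322 lower at p under 0.05 in edgeR. On the 6 AngII and losartan libraries alone DESeq2 called 49 genes, and edgeR counted 926 of 14956 at an unadjusted p under 0.05. Below, "called" therefore refers to DESeq2, and every gene named missed the edgeR threshold.

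**Figure D1:**
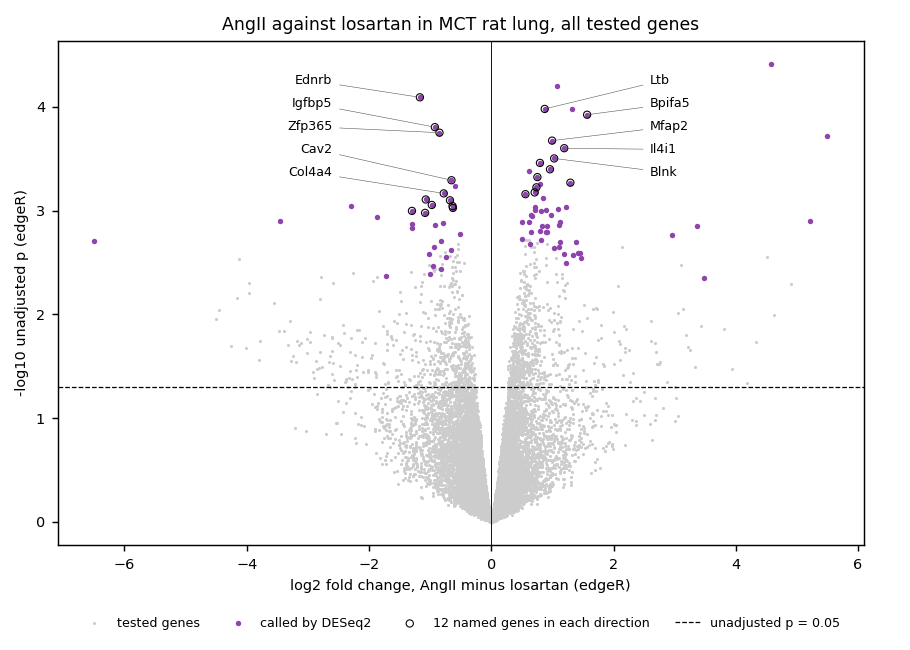
Each point is 1 of 15432 tested genes, with the edgeR log2 fold change (AngII minus losartan) on the x axis and −log10 of the unadjusted edgeR p on the y axis. The genes called by DESeq2 (purple) lie at the top of both arms, led among the named genes by Ednrb at −1.17 on the lower side and Ltb at 0.87 on the higher side.

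The genes named here are the 12 higher and 12 lower genes with the smallest edgeR p among those with a mean of at least 1 FPKM and with libraries that did not overlap. These values chose the genes, so the levels are a description. For the genes whose promoters RefSeq lists, the bases before the start are shown for the leading gene in each direction (Ltb and Ednrb) and for the pair with an AP-1 motif (Bpifa5 and Cav2), since AP-1 lies downstream of AT1R. RefSeq (build GRCr8) gave exactly 1 promoter under the symbol for 9 of the 12 higher and 6 of the 12 lower genes, and the other genes were left out. Each line gives the 250 bases before the start, 5′ to 3′ on the gene's strand, with matches to the AP-1 motif TGANTCA in capitals.
Ltb, chr20:3634055-3634304, minus strand: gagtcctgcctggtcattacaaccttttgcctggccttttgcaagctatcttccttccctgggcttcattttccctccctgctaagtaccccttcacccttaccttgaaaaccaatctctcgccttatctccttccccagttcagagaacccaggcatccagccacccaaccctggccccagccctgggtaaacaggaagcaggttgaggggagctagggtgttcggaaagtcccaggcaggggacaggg
Bpifa5, chr3:163106008-163106257, plus strand: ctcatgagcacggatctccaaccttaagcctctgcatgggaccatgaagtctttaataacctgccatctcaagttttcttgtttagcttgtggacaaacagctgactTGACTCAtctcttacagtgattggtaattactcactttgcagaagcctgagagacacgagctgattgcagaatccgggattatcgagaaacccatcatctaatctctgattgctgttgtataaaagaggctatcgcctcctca
Ednrb, chr15:87086766-87087015, minus strand: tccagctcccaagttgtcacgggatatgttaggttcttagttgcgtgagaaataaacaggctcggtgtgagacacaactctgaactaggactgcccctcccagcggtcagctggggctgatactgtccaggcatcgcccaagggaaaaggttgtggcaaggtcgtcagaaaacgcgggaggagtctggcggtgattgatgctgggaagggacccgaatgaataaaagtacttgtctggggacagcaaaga
Cav2, chr4:46582431-46582680, plus strand: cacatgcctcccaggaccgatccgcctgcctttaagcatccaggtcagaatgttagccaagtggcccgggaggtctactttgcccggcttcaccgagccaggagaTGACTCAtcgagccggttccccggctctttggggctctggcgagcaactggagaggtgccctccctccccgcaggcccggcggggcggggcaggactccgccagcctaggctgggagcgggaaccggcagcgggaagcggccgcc
TGANTCA reads the same on both strands. It was found in 1 of 9 promoters of the higher genes, 1 of 6 of the lower genes and 6.34% of all 33469 RefSeq promoters of that length. The PU.1 motif GAGGAAG, searched on both strands because PU.1 is a factor of myeloid and B cells, was found in 0 of 9 and 0 of 6, and in 10.2% of all promoters. A match is a description of the letters and not evidence of binding.

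Several of the higher genes are known from leukocytes. Ltb, which encodes the membrane anchor of lymphotoxin needed for lymphoid tissue, stood at 44.0, 49.3 and 38.8 FPKM in the AngII rats and at 29.0, 22.7 and 25.7 FPKM in the losartan rats. Every AngII value lay above every losartan value, and the vehicle rats lay at 19.4, 21.7 and 22.7 FPKM. The log2 fold change was 0.87 ± 0.15 (SE, 95% interval 0.55 to 1.20), with an adjusted p of 0.306 in edgeR and 0.00043 in DESeq2. Il21r, the receptor of interleukin 21, was at 19.7, 19.6 and 12.2 FPKM with AngII and at 10.2, 4.29 and 8.27 FPKM with losartan. Its log2 fold change was 1.29 ± 0.26, and the vehicle rats, between 9.70 and 10.5 FPKM, lay at the upper end of the losartan values. Blnk, the adapter of B cell receptor signaling, averaged 19.2 ± 2.29 FPKM (SD, n = 3) with AngII and 10.2 ± 2.45 with losartan. Map4k1, a kinase of blood cells that acts below antigen receptors, averaged 16.1 ± 0.875 and 9.99 ± 2.51 FPKM. Coro1a, an actin regulator of leukocytes, averaged 156 ± 8.26 and 99.7 ± 20.6 FPKM, and Arhgap9, a GTPase-activating protein of blood cells, 40.6 ± 3.18 and 26.7 ± 3.40 FPKM. Limd2, a LIM domain gene, averaged 140 ± 14.5 FPKM with AngII and 90.2 ± 21.2 with losartan.

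Aif1, which encodes the macrophage calcium-binding protein Iba1, was at 101, 152 and 136 FPKM with AngII and at 86.6, 63.1 and 66.3 FPKM with losartan, a log2 fold change of 0.96 ± 0.19. Il4i1, a secreted amino acid oxidase of antigen-presenting cells, was at 7.04, 7.37 and 8.20 FPKM with AngII and at 4.24, 2.73 and 3.69 FPKM with losartan. The vehicle rats lay between those groups for Il4i1, from 5.25 to 6.55 FPKM, and the TRV023 rats, from 3.37 to 4.36 FPKM, lay with losartan.

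The remaining higher genes were of other kinds and their vehicle levels differed. Bpifa5, of a family of secreted airway lipid-binding proteins, was at 22.2, 22.1 and 20.8 FPKM with AngII and at 8.51, 5.83 and 9.30 FPKM with losartan. Here the vehicle rats (26.5, 21.2 and 12.7 FPKM) lay near the AngII level and the losartan rats below it: the log2 difference was 0.26 ± 0.26 for AngII minus vehicle and −1.31 ± 0.26 for losartan minus vehicle. Mfap2, a glycoprotein of elastic microfibrils, had vehicle between the groups, at 29.95 ± 3.57 FPKM with AngII, 16.1 ± 0.496 with losartan and a mean of 24.6 with vehicle. Its log2 differences from vehicle were 0.43 ± 0.18 for AngII and −0.56 ± 0.18 for losartan. Ckb, the brain-type creatine kinase, averaged 230 ± 9.88 FPKM with AngII and 167 ± 14.6 with losartan, the smallest log2 fold change among the 12 at 0.56 ± 0.12.

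**Figure D2:**
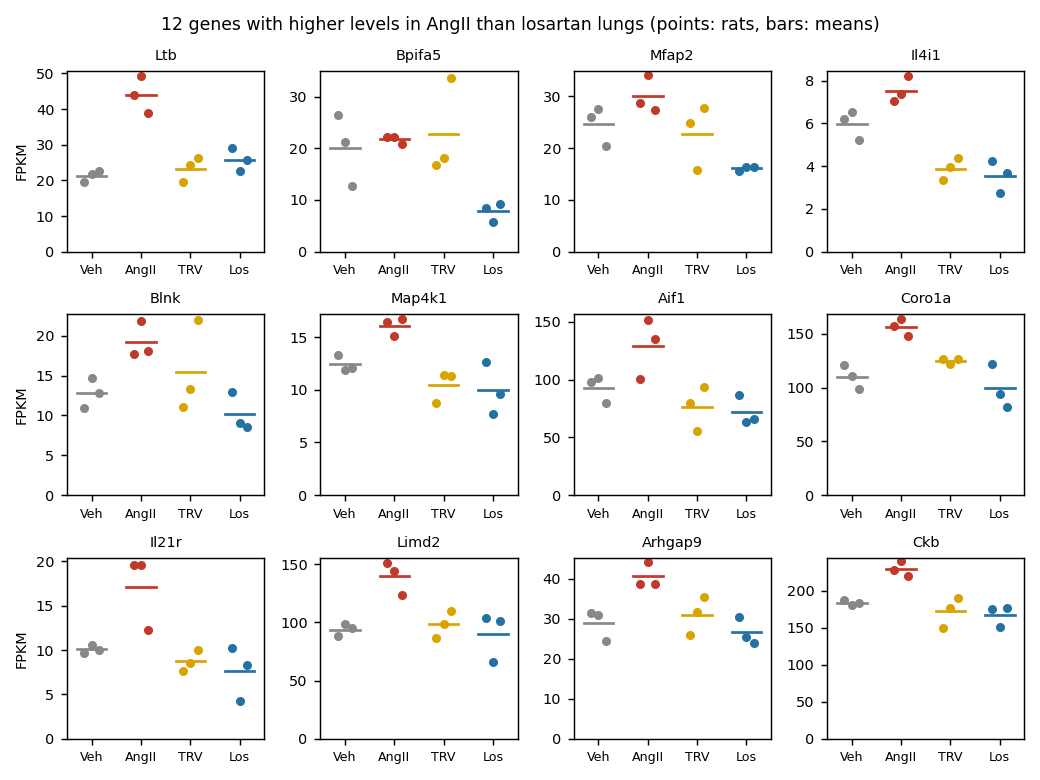
Levels in FPKM (y axis, from 0) of the 12 higher genes in each rat of the vehicle, AngII, TRV023 and losartan groups (x axis), with points for rats and bars for means. The 3 AngII points lie above the 3 losartan points in each panel. For Bpifa5 and Mfap2 the losartan means of 7.88 and 16.1 FPKM lie below vehicle, and for Ltb the AngII mean of 44.0 FPKM lies above vehicle.

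Among the lower genes, Ednrb had the smallest edgeR p of the 24. It encodes the type B endothelin receptor, which on endothelium clears endothelin-1 and releases nitric oxide. Ednrb was at 14.99, 8.56 and 12.4 FPKM with AngII, 32.0, 29.0 and 24.9 FPKM with losartan and 22.7, 27.3 and 26.5 FPKM with vehicle. The AngII rats were the low group, and losartan and vehicle overlapped. The log2 fold change was −1.17 ± 0.19 (95% interval −1.58 to −0.75, 2.25-fold lower in AngII), with an adjusted p of 0.306 in edgeR and 0.000131 in DESeq2. The differences from vehicle were −0.95 ± 0.19 for AngII and 0.22 ± 0.18 for losartan.

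3 further lower genes are known from endothelium. Ptprb, the phosphatase VE-PTP that restrains Tie2 signaling, was at 5.78, 4.48 and 5.11 FPKM with AngII and at 9.32, 14.4 and 10.2 FPKM with losartan, a log2 fold change of −1.07 ± 0.23. Gpr116, an adhesion receptor of endothelium and of alveolar type 2 cells, averaged 29.5 ± 4.83 FPKM with AngII, 48.6 ± 5.69 with losartan and 49.8 with vehicle. Cav2, a caveolin of endothelial and alveolar type 1 cells, was at 74.9, 66.3 and 73.5 FPKM with AngII and at 120, 113 and 128 FPKM with losartan. Its partner Cav1, from the alveolar type 1 list, was at 266, 236 and 239 FPKM with AngII and at 354, 363 and 452 FPKM with losartan, a log2 fold change of −0.57 ± 0.17, but was not called by DESeq2 (adjusted p = 0.0904).

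Of the other lower genes, Igfbp5, a secreted binding protein of insulin-like growth factors, was at 23.7, 19.5 and 24.1 FPKM with AngII and at 46.2, 41.7 and 48.3 FPKM with losartan. The vehicle rats (34.1 to 48.5 FPKM) and the TRV023 rats (42.9 to 61.4 FPKM) overlapped the losartan rats, and every AngII value lay below all of them. Col4a4, a collagen chain of basement membranes, averaged 72.9 ± 17.9 FPKM with AngII and 133 ± 17.5 with losartan, a log2 fold change of −0.78 ± 0.16. Bdnf, a neurotrophin, averaged 4.10 ± 0.399 and 9.18 ± 2.58 FPKM. For Bdnf the vehicle mean was 5.22 FPKM, and its log2 differences from vehicle were −0.19 ± 0.24 for AngII and 0.89 ± 0.24 for losartan. Cdc42bpg, a kinase that binds Cdc42, and Pp2d1, a phosphatase-like gene, had that same order, with log2 differences from vehicle of −0.10 ± 0.14 and −0.30 ± 0.29 for AngII and 0.53 ± 0.14 and 0.99 ± 0.28 for losartan. Tmem67, a protein of the transition zone of cilia, averaged 2.07 ± 0.532 FPKM with AngII, 4.31 ± 0.229 with losartan and 5.05 with vehicle. The zinc finger genes Zfp365 and Zfp106 completed the 12, with log2 fold changes of −0.85 ± 0.15 and −0.68 ± 0.15. The sign of every one of the 24 genes held in all 25 alternative settings, including each animal left out. The genes were chosen for groups that did not overlap in these same libraries, so a held sign is not separate support.

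**Figure D3:**
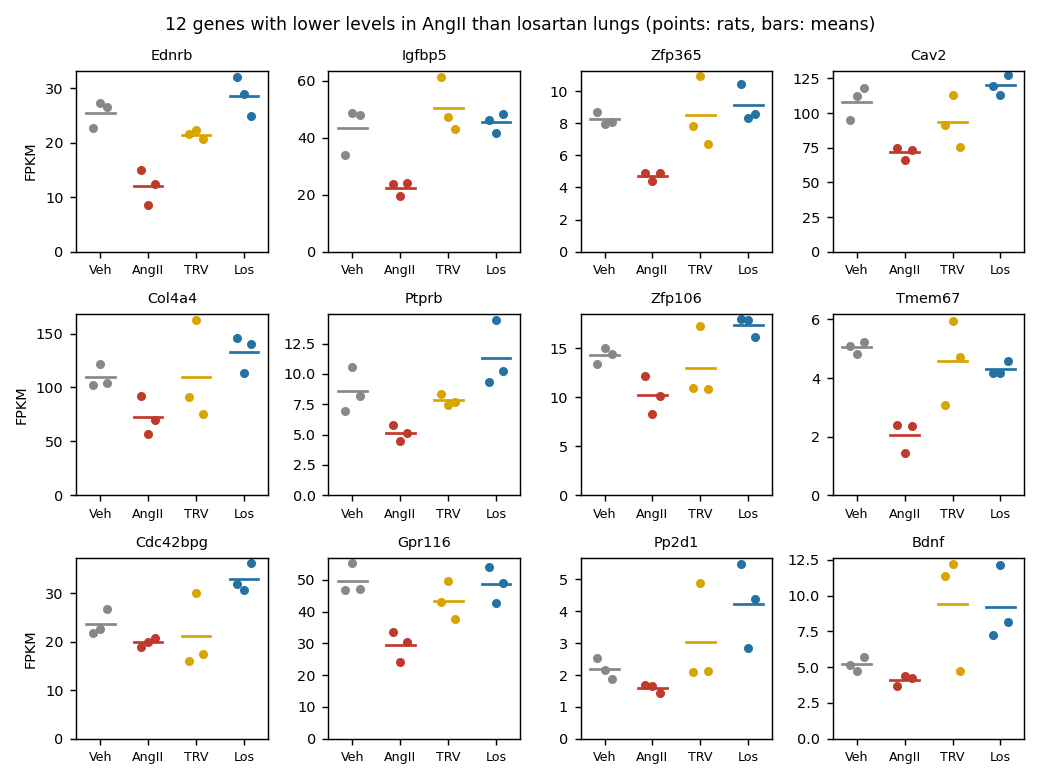
Levels in FPKM (y axis, from 0) of the 12 lower genes in each rat of the vehicle, AngII, TRV023 and losartan groups (x axis), with points for rats and bars for means. The 3 AngII points lie below the 3 losartan points in each panel. For Ednrb, Igfbp5, Gpr116 and Tmem67 the AngII mean is below vehicle (Ednrb 12 against 25.5 FPKM), and for Bdnf and Pp2d1 the losartan mean is above vehicle (Bdnf 9.18 against 5.22 FPKM).

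Pathway and cell marker lists were then read against the whole table, whose median log2 fold change was −0.0156. No list member passed an adjusted p of 0.05 in edgeR, so each list is described by its median, by the members at an unadjusted p under 0.05 and by the DESeq2 calls, beside 4.41% higher and 3.76% lower over all genes. On the macrophage list (25 genes, 21 tested) the median was 0.43, with 6 members at p under 0.05 higher in AngII and 1 lower. C1qa, a chain of complement C1q made by macrophages, was at 339, 491 and 416 FPKM with AngII and at 313, 223 and 179 FPKM with losartan (log2 fold change 0.91 ± 0.21). Spp1, which encodes the secreted protein osteopontin, was at 286, 394 and 301 FPKM against 147, 179 and 50.9 FPKM (1.47 ± 0.38). Trem2, a lipid receptor of macrophages, was at 69.1, 129 and 73.2 FPKM against 49.8, 44.8 and 31.3 FPKM (1.22 ± 0.32). These 3 were called by DESeq2, with adjusted p of 0.0193, 0.0197 and 0.046. Their log2 differences from vehicle were unlike. They were 0.68 ± 0.21 for AngII and −0.23 ± 0.21 for losartan at C1qa, and 0.49 ± 0.37 and −0.98 ± 0.38 at Spp1. At Trem2 they were 1.41 ± 0.32 for AngII and 0.19 ± 0.32 for losartan. Fabp4, a fatty acid carrier of macrophages and adipocytes, had a log2 fold change of 0.77 ± 0.28 and was not called. In the list's mean level, Los_965 was the lowest library at −0.88 log2 units from the mean of the 9, while Los_964 at 0.26 was within the AngII range of 0.11 to 0.38 and Los_925 at 0.05 was just below it. The list median was 0.22 without Los_965, 0.26 without the 960s animals and 0.409 with the number series as a covariate. Against vehicle the macrophage median was 0.25 for AngII and −0.15 for losartan.

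A list of antigen presentation by MHC class II, put together after values had been seen, had a median of 0.49 with 6 of 11 tested members at p under 0.05 higher and 0 lower. RT1-Db1, a class II chain, was at 837, 1068 and 788 FPKM with AngII and at 677, 464 and 498 FPKM with losartan, and was called by DESeq2 (log2 fold change 0.83 ± 0.19, adjusted p = 0.0144). Cd74, the invariant chain that guides class II molecules, was at 2941, 3558 and 3274 FPKM against 2745, 2425 and 2383 FPKM, without overlap (0.47 ± 0.17). The fold changes of RT1-Da, a further class II chain, and of Ciita, the transactivator of class II genes, were 0.49 ± 0.18 and 0.66 ± 0.26 on the log2 scale. RT1 genes have near-identical copies between which reads could be split, so their values are uncertain.

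The T and NK cell list (19 genes, 18 tested) had a median of 0.44, with 7 members at p under 0.05 higher and 1 lower. The CD3 chains Cd3g and Cd3d, parts of the T cell receptor complex, had log2 fold changes of 1.15 ± 0.32 and 1.17 ± 0.34. Cd3g was at 24.1, 23.6 and 21.0 FPKM with AngII and at 15.2, 7.12 and 11.2 FPKM with losartan. Cd2, an adhesion receptor of T cells, differed by 0.88 ± 0.32. Gzmb, a protease of cytotoxic cells, went the other way (−2.41 ± 0.83) at levels of at most 2.16 FPKM. The list's level was lower in Los_964 (−0.67) and Los_965 (−0.39) than in the AngII rats (0.13 to 0.48), while Los_925 (0.47) was at their upper end. With the animals numbered in the 960s left out, the median was 0.09, and with the number series as a covariate it was 0.239.

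The B and plasma cell list (16 genes, 13 tested) had a median of 0.61, with 3 members at p under 0.05 higher and 0 lower. Among them were Pou2af1, a B cell coactivator (1.12 ± 0.37), and Pax5, the factor that sets B cell identity (1.34 ± 0.53). Pou2af1 was at 6.44, 6.57 and 7.32 FPKM with AngII and at 4.40, 1.36 and 4.45 FPKM with losartan. Los_964 had the lowest level of the list (−1.28), Los_965 (0.28) was within the AngII range of 0.21 to 0.63, and the median without the 960s animals was 0.57. On the mast cell list (14 tested) the median was 0.67 with 3 members at p under 0.05 higher and 0 lower: the tryptase Tpsb2 and the proteases Mcpt2 and Mcpt10. Mcpt10 was at 373, 313 and 315 FPKM with AngII and at 339, 69.2 and 195 FPKM with losartan. The mast cell median was −0.10 without the 960s animals, with Los_925 (0.57) among the AngII levels (0.18 to 0.63). With the number series as a covariate the mast cell median was 0.232.

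The endothelial list (19 genes, all tested) had a median of −0.34, with 0 members at p under 0.05 higher and 4 lower. Beside Ednrb these were Flt1, a receptor of VEGF, at 7.86, 3.65 and 7.22 FPKM with AngII and 13.9, 11.2 and 10.02 FPKM with losartan (−0.81 ± 0.25), Tek, the angiopoietin receptor Tie2 (−0.90 ± 0.31), and Cdh5, VE-cadherin of endothelial junctions (−0.46 ± 0.18). The list level spread from −0.41 to 0.14 in the AngII rats and from 0.01 to 0.37 in the losartan rats, so the groups overlapped. Against vehicle the endothelial median was 0.08 for AngII and 0.34 for losartan. The AngII minus losartan median was −0.01 with the 960s animals left out and −0.22 without Ang2_922. With the number series as a covariate, a fit that keeps every rat, the endothelial median was −0.315. The alveolar type 1 list (12 genes, all tested) had a median of −0.46, with 0 members at p under 0.05 higher and 5 lower. Beside Cav1, the membrane protein gene Emp2 was at 260, 185 and 212 FPKM with AngII and at 312, 285 and 328 FPKM with losartan, and Ager at 960, 981 and 1293 FPKM against 1529, 1708 and 1716 FPKM. Clic5, a chloride channel protein, differed by −0.38 ± 0.15. The alveolar type 1 median lay between −0.47 and −0.40 whichever single animal was left out, and was −0.32 without the 960s animals. Against vehicle the alveolar type 1 median was −0.14 for AngII and 0.27 for losartan.

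Airway lists had the lowest medians. Of 22 tested ciliated cell genes, 22 had a negative log2 fold change, with a median of −0.73 and 3 at p under 0.05, and of 11 club and secretory genes 10 were negative, with a median of −0.80 and 1 at p under 0.05. Sntn, a protein of cilia tips, was at 3.41, 1.26 and 1.32 FPKM with AngII and at 2.30, 7.59 and 6.61 FPKM with losartan. Armc4 and Lrrc23, genes of the ciliary axoneme, were under 1 FPKM in every one of the 9 libraries. Gabrp, a GABA receptor subunit, was between 0.206 and 1.34 FPKM with AngII and between 1.21 and 6.18 FPKM with losartan. The ciliated level was 0.17 in Ang2_922, −1.51 in Ang2_931 and −1.12 in Ang2_933, against −0.44, 0.63 and 0.30 in the losartan rats, and the median went to −0.02 without the 960s animals. Scgb1a1 had a log2 fold change of −0.85 ± 0.43, which was 0.10 with the number series as a covariate, as was the club and secretory median. That median was −0.0486 without the 960s animals. Against vehicle the ciliated median was −1.32 for AngII and −0.48 for losartan, and the club and secretory median was −1.17 and −0.41. Veh_963 was the highest vehicle rat, with list levels of 1.29 (ciliated) and 1.49 (club and secretory). The part of the amount of airway in each piece of lung in these values was not tested.

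**Figure D4:**
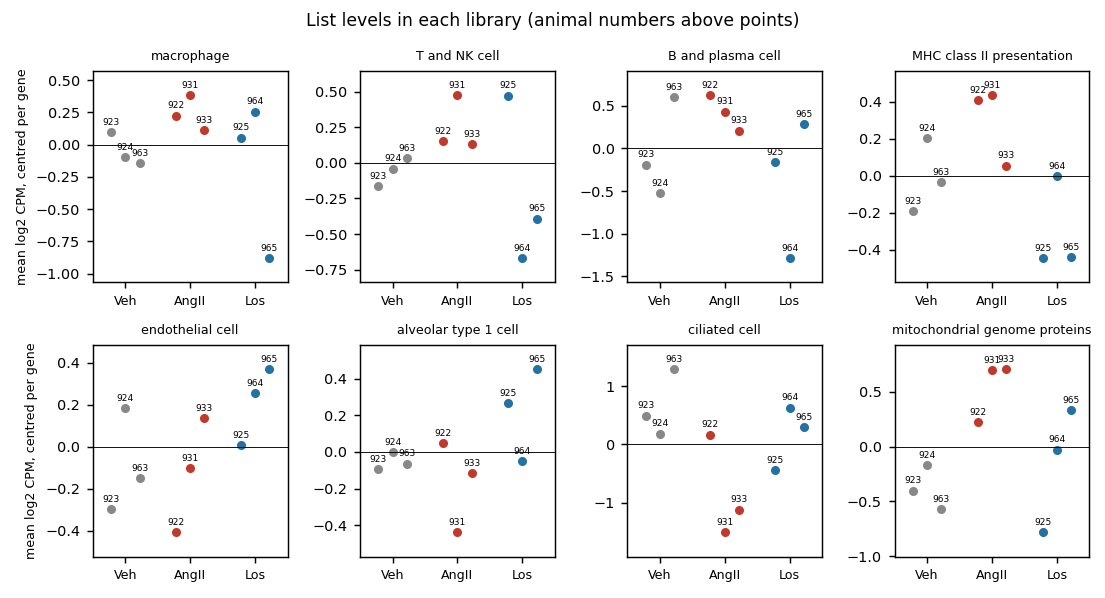
Level of 8 gene lists in each library (y axis, mean log2 CPM of the tested members, centred per gene over the 9 libraries) for vehicle, AngII and losartan rats (x axis), with animal numbers above the points. Los_965 stands low for the macrophage list at −0.88 and Los_964 for the B and plasma cell list at −1.28, and Ang2_922 stands above the other AngII rats for the ciliated list at 0.17.

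The vascular tone list (22 tested) had a median of −0.30, with 0 members at p under 0.05 higher and 3 lower, and both of its DESeq2 calls were receptors. The median was −0.176 without the 960s animals and −0.119 with the number series as a covariate. Beside Ednrb, Calcrl, the receptor of adrenomedullin and CGRP that relaxes vessels, was at 11.8, 6.52 and 9.55 FPKM with AngII and at 29.0, 16.7 and 27.3 FPKM with losartan. Its log2 fold change was −1.29 ± 0.30 with an adjusted p of 0.0143 in DESeq2, and the vehicle rats (15.04 to 33.6 FPKM) lay with losartan. Adm, the ligand adrenomedullin, was at 14.4, 18.1 and 18.5 FPKM against 29.6, 29.9 and 19.8 FPKM (−0.54 ± 0.22) and was not called. The BMP and TGF-β list (32 tested) had a median of −0.28, with 1 member at p under 0.05 higher and 4 lower. The median was −0.094 without the 960s animals, −0.256 with the number series as a covariate and −0.17 without Ang2_933. The count of lower members ran from 0 to 7 with 1 library left out. Against vehicle the list median was −0.09 for AngII and 0.14 for losartan. Bmpr2, the BMP receptor in which inherited pulmonary hypertension mutations lie, was at 15, 9.89 and 11.5 FPKM with AngII and at 22.1, 15.2 and 20.4 FPKM with losartan. It did not overlap (−0.57 ± 0.19), and was not called by DESeq2 (adjusted p = 0.269). The ligand Bmp4 and the shared mediator Smad4 differed by −0.45 ± 0.16 and −0.42 ± 0.17. Gdf15, a stress-induced member of the family, was the higher one at 53.1, 60.1 and 56.5 FPKM against 35.0, 53.2 and 42.2 FPKM (0.46 ± 0.20).

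For the receptor itself, Agtr1a, the main rat AT1R gene, was at 24.2, 29.5 and 26.4 FPKM with AngII and at 24.0, 22.2 and 23.2 FPKM with losartan. In FPKM both groups lay below the vehicle rats at 31.1, 34.7 and 35.1. On the TMM scale the log2 differences from vehicle were −0.18 ± 0.14 for AngII and −0.49 ± 0.14 for losartan. The AngII against losartan difference was 0.31 ± 0.14 on the log2 scale (95% interval 0.00 to 0.61, adjusted p = 0.605 in edgeR). Agtr2, the type 2 receptor, had 1 to 12 reads per library and was not tested, and Agtr1b and Ace were not analysed here. On the renin–angiotensin list (16 tested, median 0.07, −0.0205 on library totals) 2 members were higher at p under 0.05 and 1 lower. Prcp, a peptidase that trims AngII, was at 43.7, 42.2 and 49.99 FPKM against 36.6, 37.7 and 36.2 FPKM (0.39 ± 0.14), and Enpep, aminopeptidase A, which also cleaves AngII, at 8.41, 7.90 and 7.32 FPKM against 10.2, 11.6 and 17.6 FPKM (−0.65 ± 0.26). The mast cell chymase Cma1 (0.86 ± 0.45) and Agt, which encodes the AngII precursor (0.30 ± 0.32), had intervals that included 0.

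Downstream of the receptor, 14 of 15 tested ERK feedback genes had a negative log2 fold change, with a median of −0.34. Against vehicle the ERK feedback median was −0.05 for AngII and 0.20 for losartan. At p under 0.05, 1 gene was higher in AngII than losartan and 2 were lower. The dual-specificity phosphatase Dusp2, a nuclear ERK phosphatase of leukocytes, was the higher one (0.57 ± 0.17), and Dusp14 (−0.63 ± 0.28) and Dusp16 (−0.76 ± 0.33) were the lower. Of 25 immediate early genes 0 were higher and 2 were lower at p under 0.05: the transcription factors Klf6, at 11.5, 8.81 and 8.10 FPKM against 18.1, 19.7 and 13.2 FPKM (−0.76 ± 0.20), and Klf4 (−0.72 ± 0.30). The immediate early median of −0.06 ran from −0.50 without Ang2_931 to 0.36 without Los_964. Among arrestins, receptor kinases and RGS genes (20 tested, median 0.05), 3 were higher at p under 0.05 and 1 lower. Rgs10, an RGS of leukocytes that limits G protein signaling, was at 84.4, 107 and 82.1 FPKM against 72.8, 50.2 and 64.8 FPKM and was called by DESeq2 (0.65 ± 0.15, adjusted p = 0.0495). Arrb2, β-arrestin 2, was at 52.0, 53.3 and 46.5 FPKM against 42.5, 41.4 and 40.6 FPKM (0.38 ± 0.13), and Rgs19 differed by 0.38 ± 0.15. Rgs5, an RGS of pericytes and vascular muscle, was at 20.5, 20.2 and 23.7 FPKM with AngII and at 56.9, 24.9 and 90.6 FPKM with losartan (−1.30 ± 0.51).

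Matrix, muscle and mitotic lists were near the median of all genes. The extracellular matrix list (41 tested) had a median of −0.05, with 2 members at p under 0.05 higher and 3 lower. Beside Mfap2 and Col4a4, the basement membrane chain Col4a3 was at 4.55, 1.28 and 3.04 FPKM with AngII and at 10.1, 5.16 and 7.27 FPKM with losartan (−1.25 ± 0.36), and the proteoglycan gene Vcan differed by 0.79 ± 0.29. Of 17 smooth muscle contractile genes (median −0.11) and 62 mitotic genes (median −0.02), 0 were at p under 0.05, and the smooth muscle median was 0.45 with the number series as a covariate. Mki67, a marker of cycling cells, was at 5.17, 3.57 and 5.82 FPKM against 6.34, 2.34 and 5.97 FPKM (0.11 ± 0.33, 95% interval −0.61 to 0.83). On the chemokine and cytokine list (35 tested, median 0.41) 2 were higher at p under 0.05 and 3 lower. That median was 0.0188 with the number series as a covariate, 0.0806 without the 960s animals and 0.112 without Los_965. Il33, an alarmin of epithelium and endothelium, was at 35.1, 26.0 and 34.5 FPKM with AngII and at 57.5, 45.7 and 46.3 FPKM with losartan (−0.55 ± 0.14, adjusted p = 0.0509 in DESeq2). Cxcl14, an epithelial and stromal chemokine, was at 25.9, 19.0 and 28.0 FPKM against 140, 42.9 and 39.8 FPKM (−1.48 ± 0.45). Without Los_925 the Cxcl14 log2 fold change was −0.74. Ccl20, the ligand of CCR6, was at 7.59, 4.96 and 4.20 FPKM against 3.003, 0.451 and 1.13 FPKM (1.99 ± 0.63), and Cxcl16 differed by 0.41 ± 0.14.

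Mitochondrial and ribosomal lists had positive medians. The 13 tested proteins of the mitochondrial genome, which are core subunits of the respiratory chain, all had positive log2 fold changes, with a median of 0.66 and 7 at p under 0.05. Genes of the mitochondrial genome took 9.62%, 12.1% and 12.3% of counts in the AngII rats and 5.11%, 7.37% and 10.02% in the losartan rats, with vehicle between 5.65% and 7.55%. The groups overlapped, since Los_965 was above Ang2_922. The means were 11.4% ± 1.51 and 7.50% ± 2.46 (SD, n = 3), a difference of 3.87 percentage points with p = 0.2 in an exact two-sided permutation test, in which 0.1 is the smallest possible p. Mt-co2, a subunit of complex IV, did not overlap, at 12726, 15116 and 16139 FPKM against 6309, 9303 and 11402 FPKM (0.79 ± 0.27). ND3, Mt-co3 and Mt-nd6 differed by 0.70 ± 0.25, 0.72 ± 0.27 and 0.66 ± 0.26. Nuclear subunits had smaller medians, 0.27 for complex I (32 tested, 5 higher and 0 lower at p under 0.05) and 0.21 for complexes II to V (38 tested, 7 higher and 0 lower). Ndufc1 of complex I was at 60.4, 65.7 and 62.0 FPKM against 48.5, 39.3 and 49.7 FPKM (0.56 ± 0.14), and Uqcrq of complex III at 222, 284 and 255 FPKM against 156, 192 and 204 FPKM (0.56 ± 0.18). Of 99 cytosolic ribosomal protein genes (median 0.33), 12 were higher and 1 was lower at p under 0.05, led by Rps10 (0.56 ± 0.16) and Rps2 (0.49 ± 0.18). These medians rested in part on Los_925: without it they were 0.386 for the mitochondrial genome, 0.114 for complex I, 0.0865 for complexes II to V and 0.155 for the ribosomal list. The ribosomal count of higher genes ran from 1 to 42 and that of the mitochondrial genome from 1 to 13 with 1 library left out. Without the 960s animals, where Los_925 is the only losartan rat, the 4 medians were 1.33, 0.50, 0.399 and 0.72. With a trend on gene length removed from each library, the ribosomal list had 2 higher and 2 lower and a median of 0.16, and complex I a median of 0.13.

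**Figure D5:**
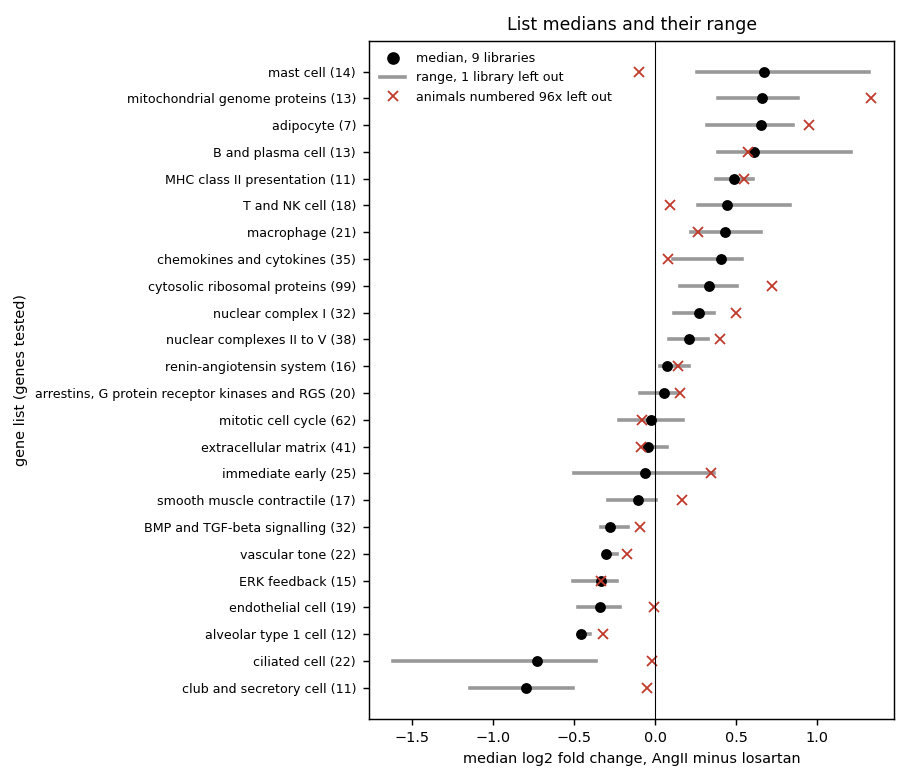
Median log2 fold change (x axis, AngII minus losartan) of the tested genes of 24 lists (y axis, number tested in brackets). Grey bars give the range when 1 library is left out, and crosses the fit without the animals numbered in the 960s. That fit has Los_925 as its only losartan rat. Crosses that lie away from 0 include those of alveolar type 1 (−0.319), ERK feedback (−0.335) and B and plasma cell (0.573). The MHC class II cross is at 0.552, but that list was put together after values had been seen. The T and NK cell, mast cell, endothelial and airway crosses lie near 0.

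The DNA replication list (43 tested) had a median of 0.17, with 2 members at p under 0.05 higher and 0 lower, and −0.0163 without the 960s animals. It and the other lists not described above, 18 in all, had medians between −0.233 and 0.220, and 19 of their 387 tested genes were higher and 9 lower at p under 0.05. Gene length moved with the contrast: over the 15432 tested genes, Spearman's correlation of log2 fold change with length was −0.209, a description across genes of the same libraries. The median length was 1270 bases for the 55 higher DESeq2 calls, 2772 bases for the 31 lower calls and 1991 bases for all tested genes. With the length trend removed, DESeq2 called 71 genes, 46 higher and 25 lower, of which 61 were among the 86. The cause of the relation with length was not tested.

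Of the genes that the study had singled out against vehicle, Trem2, Gdf15 and Cxcl14 are given above, and Arpp19 was compared in the same way, with Rps19 and RT1-CE16 taken from earlier results of these data. Rps19, a ribosomal protein, was at 327, 323 and 310 FPKM with AngII and at 298, 352 and 345 FPKM with losartan, above the vehicle rats (205, 178 and 187 FPKM) in both groups, with an AngII minus losartan difference of 0.04 ± 0.14. The listed Arpp19 gene model, named for a regulator of mitotic phosphatase, was low in both, at 1.57, 1.89 and 0.684 FPKM against 1.34, 2.57 and 1.21 FPKM, and at 5.76, 10.4 and 13.8 FPKM with vehicle. RT1-CE16, a class I histocompatibility gene, was at 3.44, 2.13 and 3.89 FPKM with AngII and at 3.76, 198 and 3.73 FPKM with losartan, so that its log2 fold change of −4.45 ± 1.39 rested on Los_964 alone. Its vehicle rats were at 108, 100 and 230 FPKM.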

How the data were processed

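Total RNA from lung tissue of 12 MCT rats was sequenced by a commercial provider. Reads were aligned to the rat genome. The aligner, counter, strand setting and genome build were not given in the sources used here. Per comparison with vehicle, the authors deposited a table of read counts per gene and of FPKM values, which are counts divided by gene length and library reads. The deposited FPKM equalled the count over listed length and reads to within 1% for 89% of genes. The authors' own fold changes and p-values in the same tables were not used.

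Samples were grouped by their titles. The tables for AngII and losartan were joined by gene identifier (17197 genes). Counts of 9 libraries were filtered with filterByExpr, normalized by TMM and fitted with edgeR 4.0.16 (R 4.3.3; glmQLFit, glmQLFTest; contrast AngII minus losartan; Benjamini-Hochberg over 15432 genes; SE from the F statistic). DESeq2 1.42.0 and limma 3.58.1 were alternatives, with log2(FPKM + 1) and log2(FPKM + 0.1) for the FPKM fits. List levels are means of log2 CPM with a prior count of 2. The fitting function was tested on simulated data. Between 17190786 and 20080071 counts per library set the precision. The p-values rest on the spread between rats pooled over the AngII, losartan and vehicle groups, with 3 rats per group.

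The named genes were the 12 higher and 12 lower genes of smallest unadjusted p without overlap and with a mean of at least 1 FPKM (clone, LOC, RGD and RT1 symbols left out), up to 4 members of smallest p from each list described, and the receptor genes and genes that the study or earlier results of these data had named. The comparison, genes and lists were chosen with earlier results of these data known. The MHC class II list, and the DESeq2 fits with libraries or mitochondrial genes left out, with a length trend or with the number series, were chosen after seeing the data. Some list members that the rule named are not reported here. Promoters came from RefSeq (GRCr8), matched by symbol, and genes without exactly 1 match were left out. Their coordinates are not those of the tables. Plots came from matplotlib 3.10.9 under Python 3.11.15.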

Additional observations from a re-analysis of the deposited data

How the results depend on the processing

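The count of 0 genes in edgeR held in each alternative with edgeR, limma-voom and limma on log2(FPKM + 1) or log2(FPKM + 0.1), in both normalizations and filters, at an adjusted p of 0.1 and with each of the 9 libraries left out (0 to 0), with 1 exception: without the animals numbered in the 960s, which leaves 1 losartan rat that is assumed to vary like the other groups, edgeR called 2 genes (Pdcd5 and LOC100912106, at both of which Los_925 stood apart). DESeq2 called 86 genes, 85 without the mitochondrial genome, 71 with the gene length trend removed, 49 on 6 libraries and 29 with the number series as a covariate, of which 8 were among the 86 (that last fit gave an adjusted p for 3861 genes against 15472). With 1 library left out it called 13 (Ang2_931) to 430 (Ang2_922), with 56, 209, 146 and 52 without Ang2_933, Los_925, Los_964 and Los_965 and 61, 82 and 90 without Veh_923, Veh_924 and Veh_963. With no adjustment, edgeR had 1261 genes at p under 0.05. Of 99 named genes, 35 passed under DESeq2 and 0 under the other 24 settings, and 6 changed sign in some setting. Arpp19 (−0.22) was 0.29 with the number series and 0.24 without the 960s animals, Mki67 (0.11) was −0.0101 on library totals, −0.28 with the number series and −0.20 without the 960s animals, and Cidec (−0.67) was 0.059 and 0.0261 in those last settings. Scgb1a1 (−0.85) was 0.10 and 0.17 in the same settings. Rps19 (0.04) was −0.05 in the 3 FPKM fits (−0.0479, −0.048 and −0.0479) and on library totals (−0.0516), and −0.13 with the length trend removed. With 1 library left out, Arpp19 ran from −0.54 to 0.27, Mki67 from −0.19 to 0.28, Rps19 from −0.0926 to 0.14 and Lipe (0.33) from −0.0107 to 0.62.

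Of 24 list medians, 8 changed sign in some setting. On library totals the renin–angiotensin median was −0.0205 and the arrestin, kinase and RGS median −0.0548. With the number series as a covariate the immediate early median was 0.0535, extracellular matrix 0.0338, club and secretory 0.10 and smooth muscle 0.45. Without the 960s animals the immediate early median was 0.35, mast cell −0.10 and smooth muscle 0.17. With the length trend removed, extracellular matrix was 0.0769 and mitotic 0.0317. With 1 library left out, the immediate early median ran from −0.50 to 0.36, arrestins and RGS from −0.0913 to 0.14, extracellular matrix from −0.0702 to 0.0725, mitotic from −0.22 to 0.17 and smooth muscle from −0.29 to 0.0050. The difference in mitochondrial share was 3.72 points on protein genes and 2.67 to 5.13 points with 1 library left out. The causes of these changes were not tested. No paired analysis was possible because the groups share no replicate numbers. Counting depth limited what was read of low genes such as Agtr2, with 1 to 12 reads per library.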

Other observations

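Several differences among those with the smallest p fell outside the rule for named genes and were chosen after their values were seen. RGD1561306, a gene model on chromosome 4, was at 28.2, 28.0 and 27.3 FPKM in the AngII rats and at 14.9, 14.8 and 12.7 FPKM in the losartan rats. The vehicle rats (15.3, 15.5 and 16.2 FPKM) lay with losartan and the TRV023 rats (29.1, 34.8 and 33.0 FPKM) with AngII. Its log2 fold change was 1.07 ± 0.17, with an adjusted p of 0.306 in edgeR and 2.01e-05 in DESeq2. AY172581.9, an RNA of the mitochondrial ribosome, was at 1263, 1224 and 1191 FPKM with AngII and at 381, 536 and 651 FPKM with losartan (1.31 ± 0.22), and its groups did not overlap although the mitochondrial share of all counts did. AABR06069517.4, an unnamed protein-coding model on chromosome 11, was at 21.0, 38.9 and 8.09 FPKM against 0.653, 0.751 and 1.59 FPKM.

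Retn, which encodes resistin, a hormone of rodent adipocytes, was at 4.44, 21.3 and 11.8 FPKM with AngII and at 0.252, 0.387 and 0.427 FPKM with losartan (log2 fold change 5.22 ± 1.20, adjusted p = 0.398 in edgeR and 0.00079 in DESeq2). The adipocyte list had a median of 0.65, with 3 of 7 tested members at p under 0.05 higher and 0 lower: Retn, Fabp4 and Cfd, the complement factor adipsin, at 97.2, 160 and 84.3 FPKM against 62.3, 83.3 and 37.5 FPKM. Lipe and Cidec, the lipase and the lipid droplet protein of adipocytes, overlapped between groups, at 11.1 to 26.6 against 14.1 to 19.6 FPKM and at 0.674 to 1.04 against 1.02 to 1.96 FPKM. The part of adipose tissue in the samples was not tested. Ly6h, a member of the Ly6 family, was at 1.29, 1.49 and 1.03 FPKM with AngII, 0.572, 1.12 and 0.568 FPKM with vehicle, and 0.064, 0 and 0 FPKM with losartan.

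Single animals stood apart at a few genes. Pdcd5 was at 2.00 FPKM in Los_925 and between 56.3 and 94.2 FPKM in the other 8 of the 9 libraries, and LOC100912106 was at 43.2 FPKM in Los_925 and at most 0.797 FPKM in the other 8.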
